A study of Mus musculus with 12 samples.

Results

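Intermediate filaments are rope-like polymers that give cells mechanical strength. Vimentin, the filament of glia, vessels and other non-neuronal cells, and peripherin, found mainly in peripheral neurons, belong to type III. The neurofilament subunits and alpha-internexin form the type IV filaments that fill axons and set their calibre, and the lamins of type V form the meshwork under the nuclear envelope. Vimentin protein is a known binding target of withaferin A, a steroidal lactone from the plant Withania somnifera. Transcripts were measured here, not proteins.

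The genes described are Vim and Prph (type III, 2 genes), Nefl, Nefm, Nefh and Ina (type IV, 4 genes) and Lmna, Lmnb1 and Lmnb2 (type V, 3 genes). They were chosen by name, and all 9 had a probe set that carried their symbol alone, out of 19938 such genes on the array. All 9 were also among the 14953 genes tested, which had a mean log2 signal of at least 5.81. Ina had 2 probe sets and the other genes 1 each.

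Hypothalamic RNA came from 23-week-old male C57BL/6J mice made obese on a diet with 45% fat, eaten for 20 weeks from the age of 3 weeks. Every mouse was first injected intraperitoneally with DMSO for 4 days. For the next 4 days the mice received celastrol, a quinone methide triterpenoid, at 100 µg/kg, withaferin A at 2 mg/kg, or DMSO as the vehicle. Each group had 4 biological replicates with 1 Affymetrix array each, 12 arrays in all, and the number of arrays limits the precision. The labels name no batch and do not say how many animals went into a replicate.

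Array medians lay between 6.89 and 6.98, and the lowest correlation between 2 arrays was 0.981. Of 14 hypothalamic marker genes 13 were measured, and those 13 passed the filter on dim genes. Their mean difference from the DMSO mean, in log2 units, was −0.15 to 0.01 on celastrol arrays, −0.18 to −0.04 on withaferin A arrays and −0.03 to 0.04 on DMSO arrays, so that the withaferin A and DMSO arrays did not overlap. The like score of 6 pituitary markers was 0.35, 2.13, 0.37 and 0.44 on the celastrol arrays, 0.03 to 0.42 on withaferin A arrays and −0.23 to 0.17 on DMSO arrays. All celastrol arrays thus lay above the DMSO arrays, and celastrol replicate 2 stood apart from the rest. Withaferin A replicate 1 was the lowest array of its group in endothelial (−0.26), oligodendrocyte (−0.36), microglia (−0.23) and mural (−0.13) markers. A like score of 10 thalamus markers ran from −0.08 to 0.83 on celastrol arrays, from −0.24 to 0.64 on withaferin A arrays and from −0.43 to 0.59 on DMSO arrays. In a piece of tissue, fewer cells of a type and less RNA per cell cannot be told apart.

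None of the 9 transcripts passed the threshold, an adjusted p under 0.05 in limma, in any of the 3 comparisons. After celastrol 0 of 9 passed, against 115 of all 14953 genes (0.769%; 0.455% higher and 0.314% lower). After withaferin A 0 of 9 passed, against 0 genes (0%), and between withaferin A and celastrol 0 of 9, against 7 genes (0.0468%; 0.00669% higher and 0.0401% lower). At an unadjusted p under 0.05 the counts were 1 of 9 in each comparison, beside 10.4%, 15.7% and 16.1% of all genes, so the members' share lay near the background. The 27 log2 fold changes lay between −0.16 and 0.19, and their 95% intervals reached at most from −24.6% to 33.0%. The median of the 9 was −0.031 after celastrol, 0.0038 after withaferin A and −0.016 between the compounds, against −0.017, −0.0041 and 0.013 over all genes tested.

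**Figure D1:**
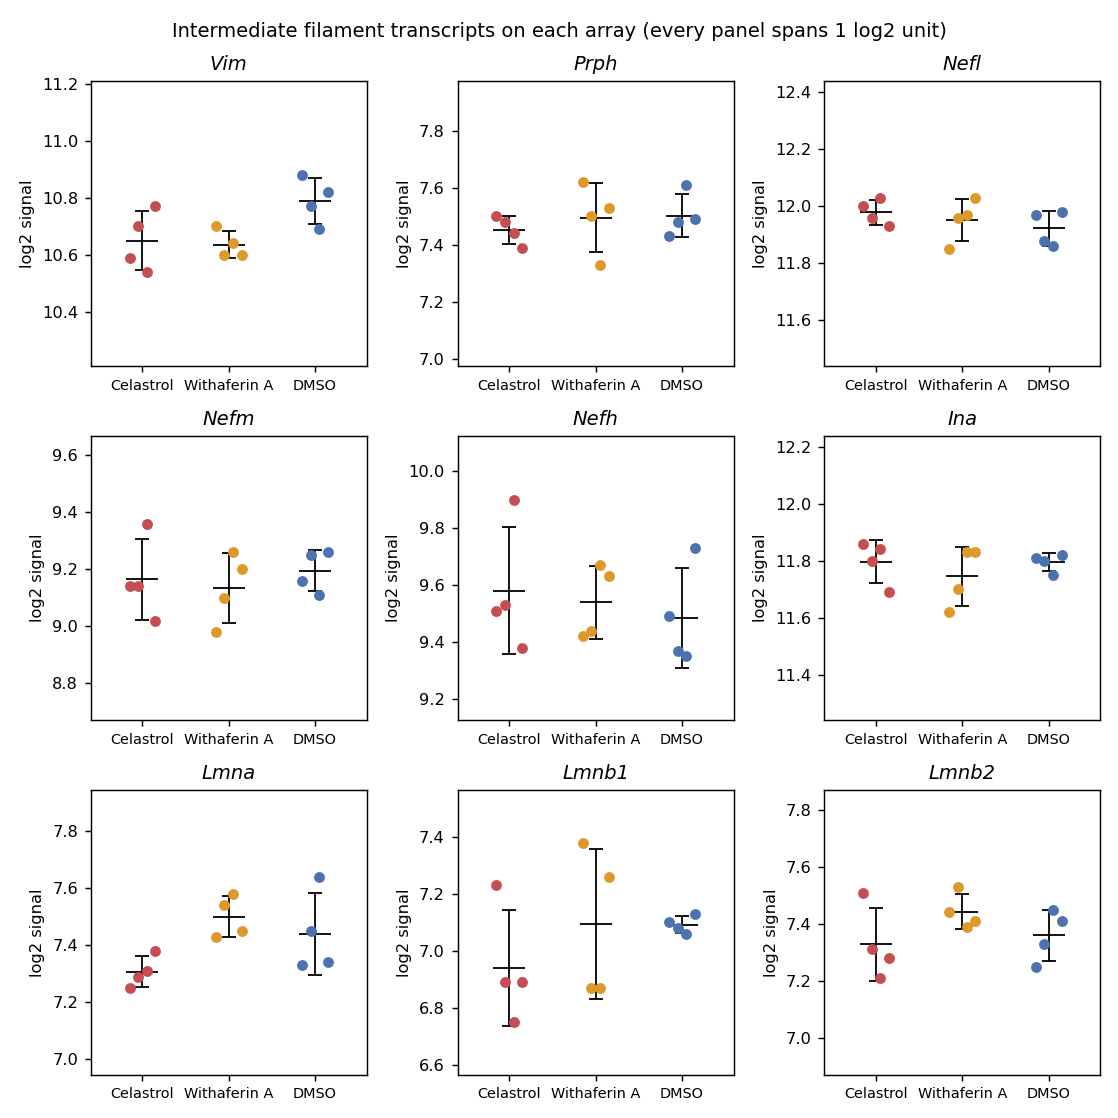
Log2 signal (vertical axis) of the 9 genes on every array, with a panel per gene that spans 1 log2 unit. Points are arrays, and the bars are the group mean ± SD (n = 4). Vim arrays lay at 10.54 to 10.77 with celastrol, 10.60 to 10.70 with withaferin A and 10.69 to 10.88 with DMSO. Of the 9 genes 0 had a treated group that did not overlap DMSO, beside 7.21% of all genes for celastrol and 7.60% for withaferin A.

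Vim was the member with the smallest p against DMSO for either compound, and it did not pass after correction. Its log2 signal was 10.59, 10.70, 10.54 and 10.77 on the celastrol arrays, 10.70, 10.60, 10.64 and 10.60 on the withaferin A arrays, and 10.88, 10.77, 10.69 and 10.82 on the DMSO arrays. Of the withaferin A arrays 3 lay below the lowest DMSO array and the fourth, at 10.70 against 10.69, just inside the DMSO range, and the celastrol arrays also reached into it. The group means ± SD were 10.65 ± 0.11 with celastrol, 10.63 ± 0.05 with withaferin A and 10.79 ± 0.08 with DMSO (n = 4 each). The log2 fold change against DMSO was −0.14 ± 0.06 (SE) for celastrol, a change of −9.20% with a 95% interval from −17.3% to −0.297%. For withaferin A it was −0.16 ± 0.06, a change of −10.2% with an interval from −18.2% to −1.42%. These intervals are for each test alone: limma's adjusted p was 0.455 for celastrol and 0.265 for withaferin A. The value stayed below 0 under the 22 alternatives tried for each compound, from −0.18 to −0.10 for celastrol and from −0.19 to −0.09 for withaferin A. Part of these could not move it: the filters, the prior, the mean of probe sets, the 8-array fit and the replicate block. Nor could leaving out an array of the group outside the comparison. The 2 comparisons share the DMSO arrays, so they are not independent. Compared directly, withaferin A and celastrol differed by −0.016 ± 0.06 in Vim, with an interval from −9.95% to 8.57% (adjusted p = 0.921). The doses differ, which also holds for every other direct comparison of the compounds.

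Cell types that express Vim gave the following marker scores, as mean log2 differences from the DMSO mean. For tanycytes, the vimentin-rich glia that line the third ventricle, the score of 9 of 10 markers ran from −0.05 to 0.18 with celastrol, 0 to 0.11 with withaferin A and −0.11 to 0.13 with DMSO. The score of 9 of 10 endothelial markers was −0.28 to −0.11 with celastrol, −0.26 to −0.01 with withaferin A and −0.02 to 0.02 with DMSO, so that the celastrol and DMSO arrays did not overlap. Apart from withaferin A replicate 1, the withaferin A arrays lay between −0.03 and −0.01. The endothelial score is a mean, and its markers did not move together after celastrol. Their log2 fold changes ran from −0.63 to 0.21, with a median of −0.015 against −0.017 over all genes tested. The score of 10 ependymal markers ran from −0.08 to −0.04 with celastrol, −0.14 to 0.06 with withaferin A and −0.08 to 0.13 with DMSO. For 9 of 10 microglia markers it ran from −0.14 to 0.10 with celastrol, −0.23 to −0.02 with withaferin A and −0.08 to 0.09 with DMSO. The score of 9 astrocyte markers ran from 0.02 to 0.09 with celastrol, −0.11 to 0.04 with withaferin A and −0.03 to 0.03 with DMSO. That of 14 mural and fibroblast markers ran from −0.05 to 0.04 with celastrol, −0.13 to 0.08 with withaferin A and −0.04 to 0.04 with DMSO. Vim was −0.16 for celastrol when celastrol replicate 2 was left out (limma adjusted p = 0.475) and −0.18 for withaferin A when withaferin A replicate 1 was left out (adjusted p = 0.322). The part of these cells in the Vim values was not tested.

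The promoter windows of Vim and Ina are shown because Vim is the withaferin A target and Ina the gene whose 2 probe sets disagreed. Of the 9 genes 5 had a window in the RefSeq table (GRCm38.p6), from 250 bases before to 50 after the start. The Vim window is chr2:13574061-13574360 (+ strand) and the Ina window chr19:47014431-47014730 (+ strand). Capitals mark the TATA box (TATAAA), the CCAAT box (CCAAT) and the GC box (GGGCGG) on either strand.
Vim: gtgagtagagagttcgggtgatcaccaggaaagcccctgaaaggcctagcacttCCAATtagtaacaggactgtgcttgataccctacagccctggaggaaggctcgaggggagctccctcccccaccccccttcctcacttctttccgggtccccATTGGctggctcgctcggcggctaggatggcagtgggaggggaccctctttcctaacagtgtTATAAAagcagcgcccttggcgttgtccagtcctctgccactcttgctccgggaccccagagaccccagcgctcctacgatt
Ina: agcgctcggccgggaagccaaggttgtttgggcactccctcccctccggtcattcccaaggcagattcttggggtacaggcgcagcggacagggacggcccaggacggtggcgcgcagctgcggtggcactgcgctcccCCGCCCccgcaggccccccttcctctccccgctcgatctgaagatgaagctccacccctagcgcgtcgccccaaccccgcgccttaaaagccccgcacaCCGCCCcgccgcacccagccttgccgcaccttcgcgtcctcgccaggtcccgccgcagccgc
The Vim window held 1 match to TATAAA, at −32 from the start, and 2 to CCAAT, while the Ina window held 2 matches to GGGCGG and 0 to the other motifs. Of 32851 promoter windows of this length, 13.6% held TATAAA, 37.4% CCAAT and 35.7% GGGCGG on either strand. A match describes the letters of the window and is not evidence of a bound site.

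Prph, the type III filament of peripheral and some central neurons, differed little between groups. Its mean signal and those of the lamin genes lay below the 50th percentile of all genes. The log2 signal of Prph ran from 7.39 to 7.50 on celastrol arrays, 7.33 to 7.62 on withaferin A arrays and 7.43 to 7.61 on DMSO arrays, with means of 7.45 ± 0.05 with celastrol, 7.49 ± 0.12 with withaferin A and 7.50 ± 0.08 with DMSO (SD, n = 4). The log2 fold change was −0.051 ± 0.06 (SE) for celastrol and −0.011 ± 0.06 for withaferin A, with limma adjusted p of 0.856 and 0.946.

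The neurofilament triplet is built on the light subunit Nefl, to which the medium and heavy subunits Nefm and Nefh add side arms. Nefl had 12 (to 2 decimals), 11.96, 12.03 and 11.93 on the celastrol arrays, 11.85, 11.96, 11.97 and 12.03 on the withaferin A arrays, and 11.97, 11.88, 11.86 and 11.98 on the DMSO arrays. The 3 groups overlapped, with means of 11.98 ± 0.04 with celastrol, 11.95 ± 0.07 with withaferin A and 11.92 ± 0.06 with DMSO (SD, n = 4). Its intervals were the narrowest of the subunits: a change from −3.77% to 13.0% for celastrol and from −5.62% to 10.9% for withaferin A. The log2 fold changes were 0.061 ± 0.05 and 0.033 ± 0.05 (SE), with limma adjusted p of 0.774 and 0.798.

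Nefm had 9.14, 9.14, 9.36 and 9.02 on the celastrol arrays, 8.98, 9.10, 9.26 and 9.20 on the withaferin A arrays, and 9.16, 9.25, 9.11 and 9.26 on the DMSO arrays. The highest and the second lowest of these 12 values both came from celastrol arrays. The log2 fold change was −0.031 ± 0.08 (SE) for celastrol and −0.061 ± 0.08 for withaferin A (limma adjusted p = 0.932 and 0.733). Nefh had 9.51, 9.53, 9.90 and 9.38 on the celastrol arrays, 9.42, 9.44, 9.67 and 9.63 on the withaferin A arrays, and 9.49, 9.37, 9.35 and 9.73 on the DMSO arrays. Each group thus held Nefh values both high and low. The log2 fold change was 0.093 ± 0.11 for celastrol and 0.055 ± 0.11 for withaferin A, with intervals from −9.68% to 26.0% and from −12.0% to 22.7% (limma adjusted p = 0.844 and 0.835). Without celastrol replicate 3, the array with the highest Nefh, the value for celastrol was −0.012. For both subunits the spread within groups exceeded the difference between their means.

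Ina codes for alpha-internexin, a subunit that copolymerises with the triplet in central axons. The probe set chosen for it, 10463732, had 11.86, 11.80, 11.84 and 11.69 on the celastrol arrays, 11.62, 11.70, 11.83 and 11.83 on the withaferin A arrays, and 11.81, 11.80, 11.75 and 11.82 on the DMSO arrays. The groups overlapped, and the log2 fold change was 0.0067 ± 0.06 (SE) for celastrol and −0.045 ± 0.06 for withaferin A (limma adjusted p = 0.983 and 0.747).

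The other Ina probe set, 10463737, gave a different picture. It is tied in the probe table to a cDNA clone alone, and the first also to the RefSeq transcript. It had 11.83, 12.14, 11.94 and 11.83 on the celastrol arrays, 11.60, 11.51, 11.49 and 11.43 on the withaferin A arrays, and 11.81, 11.71, 11.49 and 11.87 on the DMSO arrays. The withaferin A arrays all lay below the celastrol arrays, and both groups overlapped the DMSO arrays. Of all genes tested, by their chosen probe sets, 9.27% had arrays that did not overlap between the compounds. In a fit of the 16446 single-symbol probe sets above the filter, the log2 difference between withaferin A and celastrol was −0.43 ± 0.09 (SE), a change of −25.7% with an interval from −34.8% to −15.2%. The adjusted p was 0.0883, and 7 probe sets (0.0426%) passed. It was 0.0486 with limma's prior made robust and dependent on intensity, and without celastrol replicate 2, the array with high pituitary markers, the value was −0.36 (adjusted p = 0.213). Against DMSO the same probe set had 0.21 ± 0.09 for celastrol (adjusted p = 0.412) and −0.22 ± 0.09 for withaferin A (adjusted p = 0.256). The chosen probe set differed by −0.051 ± 0.06 between the compounds. The 2 probe sets thus disagreed by 0.38 log2 units. A gap at least that large between the 2 probe sets of highest mean was found in 21 of the 820 genes with 2 or more above the filter (2.56%), and the median gap of the 820 was 0.07.

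**Figure D2:**
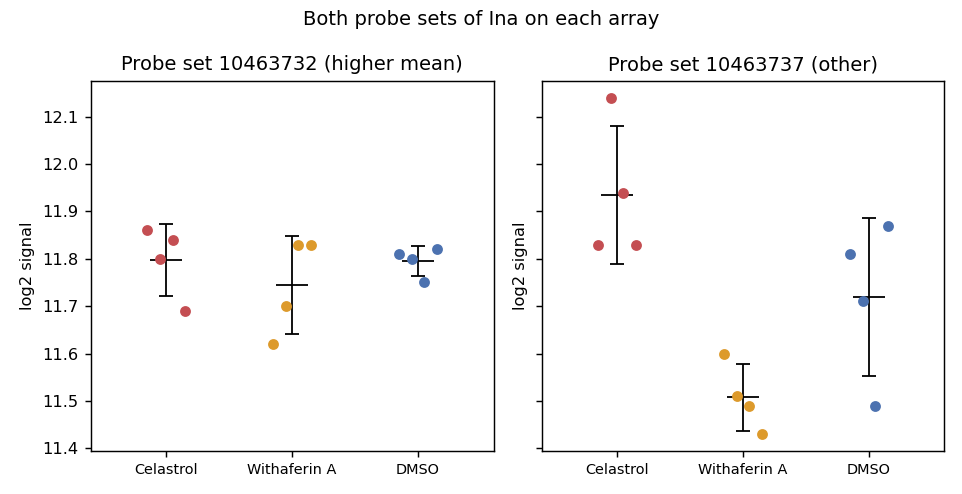
Log2 signal (vertical axis) of the 2 Ina probe sets on each array, with group means ± SD (n = 4). On the left, the groups overlap between 11.62 and 11.86, and on the right the withaferin A arrays at 11.43 to 11.60 lie below the celastrol arrays at 11.83 to 12.14. Of all genes tested, 9.27% had arrays that did not overlap between the compounds.

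The 4 type IV transcripts, with Ina as probe set 10463732, varied together from array to array. Over the 12 arrays the 6 pairs of Nefl, Nefm, Nefh and Ina had Pearson r from 0.57 (Nefl and Nefm) to 0.81 (Nefm and Ina) and Spearman rho from 0.66 to 0.87. The permutation p of r was 0.00072 for Nefm and Ina (adjusted over the 6 pairs 0.00432), 0.00278 for Nefm and Nefh (0.00834), 0.00482 for Nefl and Nefh (0.00964), 0.0109 for Nefl and Ina (0.0163), 0.0354 for Nefh and Ina (0.0425) and 0.0559 for Nefl and Nefm (0.0559). The permutation p of rho, adjusted in the same way, ran from 0.00252 to 0.0222. These p test each pair against independence only, and whether r was higher than for other pairs of genes was not tested. Member pairs not both of type IV had r from −0.46 (Nefl with Prph or Lmna) to 0.64 (Prph and Lmnb1). The latter lay above the r of Nefl and Nefm and that of Nefh and Ina. Each type IV gene also had genes outside the type with r above all 6 pairs, named under Other observations. As deviations from the group means, r was 0.71 for Nefl and Nefm and 0.85 for Nefm and Nefh, and it lay between 0.66 and 0.85 for the 6 pairs. Within single groups of 4 arrays r ran from 0.43 to 0.99, a range with too few arrays for a test. Without the 2 arrays farthest from the median of the first gene, r was 0.32 to 0.74 over 10 arrays. In that form 0 of the 6 pairs passed, with permutation p adjusted over the pairs from 0.0549 to 0.37. The value of r was then 0.74 for Nefl and Nefh, 0.72 for Nefm and Ina, 0.65 for Nefm and Nefh and 0.60 for Nefh and Ina, and lower, at 0.51 and 0.32, for Nefl with Ina and with Nefm. The other Ina probe set, 10463737, was not part of these correlations. It had 11.60, 11.51, 11.49 and 11.43 on withaferin A replicates 1 to 4, in the reverse order of Nefl. On the DMSO arrays it ranked as Nefl did, and on the celastrol arrays in neither way.

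The same arrays differed in the thalamus marker score, a relation examined after the values were seen. Ina is again probe set 10463732 here. Pearson r of the score over 12 arrays was 0.92 for Nefh (permutation p = 1e-05, the smallest that the resamples allow), 0.91 for Nefl (permutation p = 5e-05), 0.67 for Ina (permutation p = 0.0178) and 0.65 for Nefm (permutation p = 0.0226). Adjusted over these 4 relations the values were 4e-05, 0.0001, 0.0226 and 0.0226. Spearman rho was 0.95, 0.95, 0.80 and 0.69, with adjusted permutation p of 4e-05, 4e-05, 0.00392 and 0.0173. Neither adjustment covers the choice of this score from among the marker scores, so these p are not those of a planned test. Without DMSO replicate 3 and celastrol replicate 3, r was 0.90 for Nefh, 0.86 for Nefl, 0.65 for Ina and 0.52 for Nefm. Within single treatment groups r was 0.93 to 0.96 for Nefh, 0.88 to 0.97 for Nefl, 0.72 to 0.99 for Ina and 0.44 (DMSO) to 0.94 for Nefm. With the score as a covariate the SE of Nefh was 0.06 instead of 0.11, and its log2 fold change was −0.011 for celastrol and −0.030 for withaferin A (limma adjusted p = 0.972 and 0.837). The interval for Nefh was then from −9.62% to 8.96% for celastrol and from −10.7% to 7.42% for withaferin A. Nefm lay farther from 0 with the covariate, at −0.087 ± 0.06 for celastrol and −0.11 ± 0.06 for withaferin A (adjusted p = 0.689 and 0.41), as did Ina at −0.030 ± 0.05, with the sign turned, and −0.074 ± 0.05 (adjusted p = 0.897 and 0.493). Nefl lay nearer to 0, at 0.025 ± 0.05 and 0.0039 ± 0.05 (adjusted p = 0.898 and 0.972). The mean score of markers of oligodendrocytes, the cells that sheathe axons, also differed between groups: for 9 of 10 it ran from −0.30 to −0.25 with celastrol, −0.36 to −0.09 with withaferin A and −0.06 to 0.06 with DMSO. Their log2 fold changes after celastrol ran from −1 to 0.31, and 2 of 9 passed, both lower, against 0.314% of all genes. After withaferin A they ran from −0.47 to 0.021, and 0 of 9 passed. The score of 10 neuron markers ran from −0.08 to 0.03 with celastrol, −0.04 to −0.02 with withaferin A and −0.04 to 0.03 with DMSO.

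**Figure D3:**
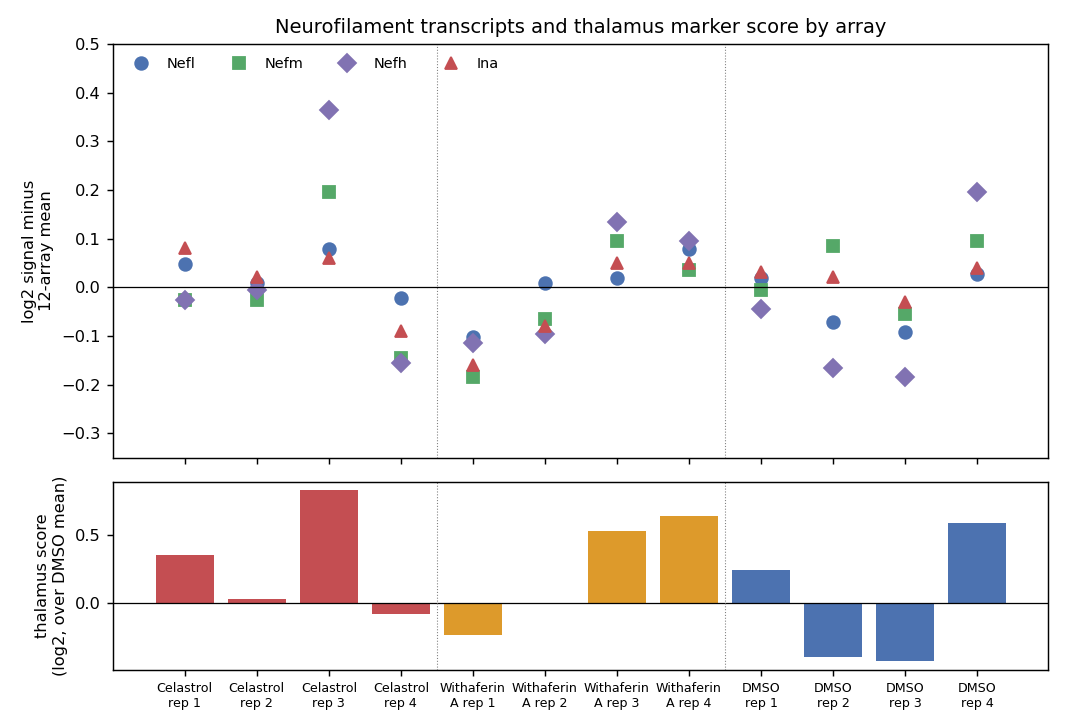
Upper panel, log2 signal of 4 type IV transcripts (Ina as probe set 10463732) minus each gene's mean over 12 arrays. Lower panel, mean of 10 thalamus marker genes as log2 difference from the DMSO mean, by array. Nefh and the score are highest on celastrol replicate 3, at 9.90 and 0.83, and lowest on DMSO replicate 3, at 9.35 and −0.43.

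The lamins comprise the A-type lamin gene Lmna and the B-type genes Lmnb1 and Lmnb2, whose products stay attached to the inner nuclear membrane. Lmna had 7.25, 7.29, 7.31 and 7.38 on the celastrol arrays, 7.43, 7.54, 7.58 and 7.45 on the withaferin A arrays, and 7.33, 7.45, 7.64 and 7.34 on the DMSO arrays. The withaferin A arrays all lay above the celastrol arrays, while the DMSO arrays overlapped both. By the chosen probe sets, Lmna was the 1 member of 9 whose arrays did not overlap between the compounds, and 9.27% of all genes had that pattern. The other Ina probe set, 10463737, had it as well. The log2 difference between withaferin A and celastrol was 0.19 ± 0.07 (SE), a change of 14.3% with an interval from 3.07% to 26.8%, and limma's adjusted p was 0.216. Against DMSO, Lmna had −0.13 ± 0.07 for celastrol (adjusted p = 0.547) and 0.063 ± 0.07 for withaferin A (adjusted p = 0.686). Without DMSO replicate 3, where Lmna was highest, these values were −0.064 and 0.13 (adjusted p = 0.749 and 0.22). Against DMSO 0 of 9 members had arrays that did not overlap, beside 7.21% of genes for celastrol and 7.60% for withaferin A.

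Lmnb1 had 7.23, 6.89, 6.75 and 6.89 on the celastrol arrays, 7.38, 6.87, 6.87 and 7.26 on the withaferin A arrays, and 7.10, 7.08, 7.06 and 7.13 on the DMSO arrays. The DMSO arrays lay close together, and treated arrays lay on either side of them. The SD was 0.21 with celastrol and 0.27 with withaferin A, 6.91 and 8.91 times the 0.03 of DMSO. Of the genes tested 0.187% had both ratios at least as high, a description made after the values were seen, without a test. The log2 fold change was −0.15 ± 0.12 (SE) for celastrol and 0.0038 ± 0.12 for withaferin A (limma adjusted p = 0.735 and 0.991), and the pooled SE does not carry the difference in spread. Lmnb2 ran from 7.21 to 7.51 on celastrol arrays, 7.39 to 7.53 on withaferin A arrays and 7.25 to 7.45 on DMSO arrays. Its log2 fold change was −0.031 ± 0.07 for celastrol and 0.085 ± 0.07 for withaferin A (limma adjusted p = 0.922 and 0.573). Between withaferin A and celastrol Lmnb1 had 0.15 ± 0.12 and Lmnb2 0.12 ± 0.07, with adjusted p of 0.536 and 0.421. With 1 array left out Lmnb1 ranged from −0.25 (without celastrol replicate 1) to −0.086 (without celastrol replicate 3) for celastrol against DMSO. Between the compounds it was 0.25 without celastrol replicate 1, 0.09 without celastrol replicate 3 and 0.057 without withaferin A replicate 1. Lmnb2 between the compounds ranged from 0.077 to 0.18 when celastrol replicate 3 or 1 was left out.

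**Figure D4:**
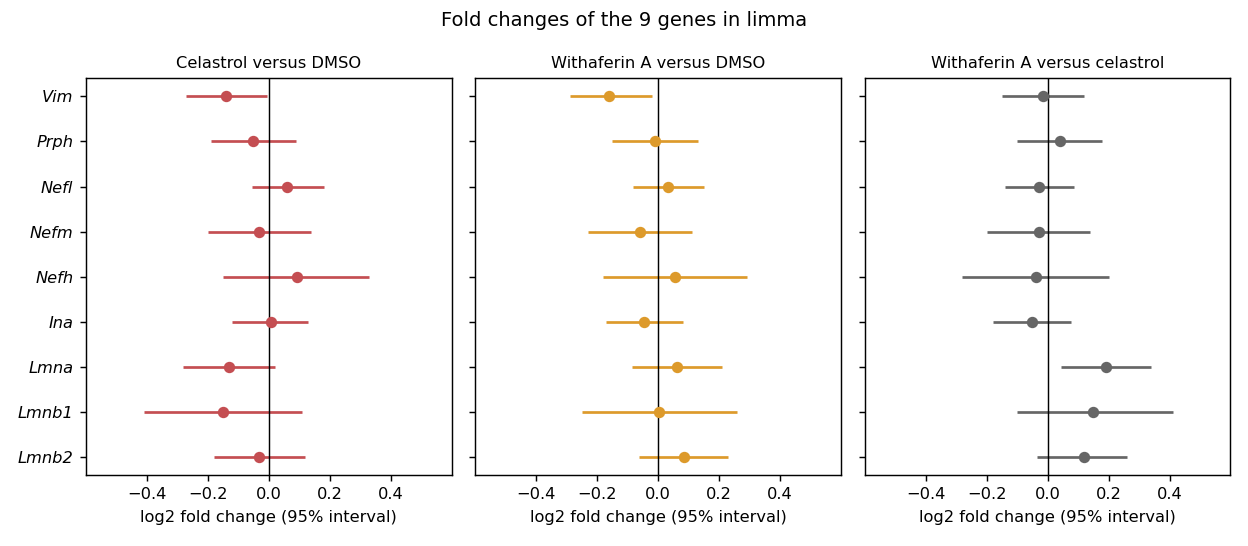
Log2 fold changes (horizontal axis) of the 9 genes in 3 comparisons, with 95% intervals from limma not corrected for the number of tests. Of the 27 intervals 3 leave out 0, those of Vim against DMSO for each compound and that of Lmna between the compounds, and all 27 lie between −0.41 and 0.41.

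The lists of other filament, lamina and axonal genes gave no call. Of 23 other intermediate filament genes 19 were tested, and 0 passed in each comparison. The median log2 fold change was −0.0076 after celastrol and 0.037 after withaferin A. Nes, the nestin gene of tanycytes and vessels, had −0.38 ± 0.18 (SE) after celastrol (limma adjusted p = 0.484), and the keratin gene Krt80 had 0.21 ± 0.09 after withaferin A (adjusted p = 0.285). Of 20 tested genes for linkers, motors, kinases and turnover of filaments 0 passed as well. Dynll1, a dynein light chain, had −0.19 ± 0.06 after withaferin A (adjusted p = 0.184), and Ppl, the linker periplakin, had 0.25 ± 0.07 (adjusted p = 0.185). Ppl was also near the filter, at 5.89 to 6.40.

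Of 25 tested partners of the nuclear lamina 0 passed, with medians of −0.018 after celastrol and 0.021 after withaferin A. Tor1aip1, which encodes a lamina-associated protein of the inner nuclear membrane, had −0.33 ± 0.09 (SE) after withaferin A (limma adjusted p = 0.169), and the torsin gene Tor1a had −0.21 ± 0.07 after celastrol (adjusted p = 0.243). Between the compounds, Zmpste24, the protease that matures prelamin A, had −0.19 ± 0.06 and the nesprin gene Syne4 0.29 ± 0.08 (adjusted p = 0.189 and 0.143).

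Of 22 genes of axonal microtubules, spectrin and growth 0 passed, with medians of −0.036 after celastrol and −0.053 after withaferin A. Tubb2b, a beta-tubulin gene, had −0.18 ± 0.07 after celastrol and −0.21 ± 0.07 after withaferin A (SE; limma adjusted p = 0.315 and 0.189). Gap43, a growth cone protein gene, had −0.14 ± 0.05 and −0.13 ± 0.05 (adjusted p = 0.334 and 0.265), and its arrays ran from 11.26 to 11.42 with celastrol, 11.32 to 11.39 with withaferin A and 11.40 to 11.56 with DMSO. Among 16 tested genes of reactive astrocytes, the state in which vimentin and Gfap are known to rise, 2 passed after celastrol and 0 after withaferin A. Lcn2 rose by 3.45 ± 0.51 and Osmr by 1.26 ± 0.21 (adjusted p = 0.0141 and 0.0191), against 0.455% of all genes called higher, and the list was drawn up with these results known. Both calls were lost without DMSO replicate 2 (adjusted p = 0.0682 each), celastrol replicate 2 (0.0524 for Lcn2 and 0.0654 for Osmr) or celastrol replicate 3 (0.051 and 0.0649), and that of Osmr also without DMSO replicate 4 (0.0641). The list median was 0.020 after celastrol, with a range from −0.22 to 3.45. Serpina3n and Cp, which code for secreted proteins of reactive glia, had 0.43 ± 0.10 and 0.60 ± 0.14 (adjusted p = 0.078 and 0.0751). After withaferin A, S100a10 had −0.28 ± 0.08, while Lgals3 had 0.17 ± 0.06, Aspg 0.27 ± 0.1 and Osmr 0.49 ± 0.21. Their limma adjusted p was 0.169, 0.208, 0.249 and 0.283.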

How the data were processed

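RNA was hybridised to Affymetrix arrays after amplification and biotin labelling with whole-transcript kits, per the labels' protocols. The authors deposited log2 values processed with RMA, per the submitters' processing notes, whose version is not given in the sources used here. Of 35556 probe sets 21789 had 1 gene symbol, 1621 several and 12146 none. The probe set with the highest mean stood for each of 19938 genes, and the dimmest 25% of genes (mean log2 under 5.81) were not tested. Group means were fitted to 12 arrays with limma 3.58.1 in R 4.3.3 (lmFit, eBayes; 9 residual and 4.44 prior degrees of freedom), with two-sided tests adjusted by the Benjamini-Hochberg method over 14953 genes. Correlations were tested with 100000 permutations. The limma fit was tested on simulated data with planted changes larger than those of the members. The correlations and marker scores were not simulated.

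The members and lists were chosen with earlier results of these data known. The text names the 9 members, up to 4 genes of smallest p per list and comparison, and the 2 genes most correlated with a member. Same-numbered replicates were checked for pairing: deviations from the group means correlated from −0.28 to 0.12, over 0.1 in 2 of 12 pairs, so replicate numbers were not treated as pairs. Alternatives covered the filter, probe set rule, scaling, prior, array weights, 8-array fits, a replicate block, the threshold and each array left out. The thalamus score as a covariate was added after the data were seen.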

Additional observations from a re-analysis of the deposited data

How the results depend on the processing

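The count of members past the threshold was 0 under every alternative tried, 72 counts in all with the 3 reported, including the replicate block. At the 50th percentile filter these counts are of Vim, Nefl, Nefm, Nefh and Ina only, since Prph and the lamins were left out there. Of 582 alternative fold changes of members 0 had an adjusted p under 0.05. The replicate block gave Vim values of −0.14 for celastrol and −0.16 for withaferin A against DMSO (limma adjusted p = 0.547 and 0.333). It changed no call of a member, while the count of all genes for celastrol was 54 with the block against 115 without. That count was 60 with no filter, 195 with an intensity trend and robust prior, 219 with array weights, 182 with 8 arrays, 212 at a threshold of 0.10, and 6 to 207 with 1 array left out (20, 6, 62 and 32 without DMSO replicates 1 to 4, 67, 17 and 12 without celastrol replicates 1 to 3, and 207 without withaferin A replicate 1). For withaferin A against DMSO (0 genes, and 2352 at an unadjusted p under 0.05) it was 8 with the trend, 21 with weights, 4 with the thalamus score, 8 at 0.10 and 0 to 172 with 1 array left out, where 172 is without DMSO replicate 3 and 1 without withaferin A replicate 3. Between the compounds (7 genes) it was 11 with no filter, 13 at the 50th percentile, 29 with the trend, 19 with weights, 0 with 8 arrays, 77 at 0.10 and 0 to 56 with 1 array left out (1, 0 and 15 without celastrol replicates 2 to 4, and 56, 1 and 0 without withaferin A replicates 1, 2 and 4). The cause of these differences was not tested. Fold changes near 0 changed sign in 29 of the 582 fits, all with an adjusted p of at least 0.739. Part of the 582, such as those with another filter or prior, could not change sign. Renewed quantile normalization gave 0.024 for Ina and −0.026 for Lmnb1 (withaferin A against DMSO) and 0.027 for Vim and 0.013 for Nefl (withaferin A against celastrol). Lmnb1 for withaferin A against DMSO was −0.0049 with centred arrays and −0.032 with array weights. The thalamus score gave −0.011 for Nefh and −0.03 for Ina (celastrol against DMSO), and 0.0073 for Prph and −0.03 for Nefh (withaferin A against DMSO). With 1 array left out, the range for celastrol against DMSO was −0.096 to 0.017 for Nefm, −0.012 to 0.18 for Nefh, −0.013 to 0.041 for Ina and −0.092 to 0.0079 for Lmnb2. For withaferin A against DMSO it was −0.052 to 0.045 for Prph and −0.093 to 0.08 for Lmnb1. Between the compounds it was −0.054 to 0.024 for Vim, −0.0012 to 0.095 for Prph, −0.054 to 0.0054 for Nefl, −0.079 to 0.034 for Nefm and −0.1 to 0.068 for Nefh. The correlation of Nefl and Nefm passed with deviations from group means (r = 0.71). The permutations took these deviations as independent, but those of a group sum to 0, so their p is too small. Without the 2 farthest arrays r no longer passed for Nefl and Nefh (0.74), Nefl and Ina (0.51), Nefm and Nefh (0.65), Nefm and Ina (0.72) or Nefh and Ina (0.60), with fewer arrays in the test. With 4 arrays a group, changes of the size of these intervals cannot be told from 0.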

Other observations

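The tested genes whose pattern over the 12 arrays was most like that of a member were found by Pearson r of the log2 signal, as a description with no test, since each is the highest of 14953 genes less the member itself. For Vim they were Nap1l1, a histone chaperone gene, at 0.94 and Mllt11 at 0.92. For Nefl they were Grin2b, an NMDA receptor subunit gene, and Prkch, a protein kinase C gene, at 0.94 each. Nefm was most like Ubtf (0.91) and the cadherin gene Cdh6 (0.90), and Nefh most like Abhd12b (0.96) and Peak1 (0.95). For Ina they were Kcnd2, an A-type potassium channel gene, at 0.92 and Hsph1, a heat shock protein gene, at 0.91. Prph was most like Sct, the secretin gene, at 0.93 and Mfap2 at 0.92. Among the lamins, Lmna was most like Nsun5 (0.94) and Mrpl58 (0.93), Lmnb1 most like Sycn (0.93) and the receptor gene Acvrl1 (0.87), and Lmnb2 most like Atp6v1g2 and Scube3 (0.93 each). The highest 0.1% of all genes began at an r between 0.80 for Lmnb1 and 0.91 for Nefh. The points of each correlation share the same 12 arrays, and with them whatever differs between arrays.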
